A study of Mus musculus with 15 samples.

Results

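The genes of 3 ion pumps that use or make ATP were followed in sorted mouse islet cells: the mitochondrial ATP synthase, the vacuolar proton pump and the sodium pump. They were chosen by symbol as every entry starting with Atp5, Atp6, Atp1a or Atp1b. Of 51 matching entries the pseudogene Atp6v0c-ps2 was left out, and 50 of the 23699 entries listed were members, with 17 Atp5, 25 Atp6 and 8 Atp1a or Atp1b genes. These symbols stand for 3 different protein complexes, which the study counted together as complex V, so each was described here on its own. Poly-A RNA was sequenced from RFP+ cells of primary islets, RFP being the permanent label left by cre recombination in β cells or former β cells. The cells were divided by Aldefluor, a fluorescent substrate that labels cells with aldehyde dehydrogenase activity, into ALDH- and ALDH+ cells. Per the labels control mice were triple heterozygous for FoxO 1, 3 and 4 and knockout mice were triple knockouts, whereas the study methods give the Rip-cre controls as wild-type at these genes, so whether controls carried a deleted copy is not settled. All mice were of the mixed strain 129JC57BL/6. There were 3 control ALDH-, 2 control ALDH+, 5 knockout ALDH- and 5 knockout ALDH+ libraries. Recombination was driven by Rip-cre, which acts in β cells, in 9 libraries and by Pdx-cre, which acts in pancreatic precursors and so labels all islet cell types, in 6. The Pdx-cre libraries were control ALDH- 3, control ALDH+ 2, knockout ALDH- 4 and 5, and knockout ALDH+ 4 and 5. Per the study methods the Rip-cre mice were 6 months old. The age of the Pdx-cre mice was not given in the sources used here. Nothing in the labels says that libraries of a group came from separate animals, so p-values measure only the spread between these libraries, which may in part be technical.

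ATP synthase sits in the inner mitochondrial membrane, where protons flowing back through its c ring turn a central stalk inside the F1 head and drive the synthesis of ATP. The vacuolar pump is built on the same plan but runs in reverse: its V1 head hydrolyses ATP and its V0 sector moves protons into lysosomes, endosomes and secretory granules, and in β cells it acidifies the insulin granule. The sodium pump, made of a catalytic alpha and a glycosylated beta subunit, exports sodium and imports potassium at the plasma membrane. In β cells ATP made by the synthase after glucose uptake closes the ATP-sensitive potassium channel, which precedes insulin release.

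Stretches of 5 members' promoters are shown because they carry the letters of motifs found in promoters of many nuclear genes for mitochondrial proteins. RefSeq windows on GRCm38.p6 covered 38 of the 50 members, and the 250 bases before each start site were searched on both strands. The palindromic core of the NRF1 motif, whose letters are the capitals of the Atp5k line, was in 0.877% of the windows' 27025 genes and in 2 of 16 Atp5, 1 of 18 Atp6 and 0 of 4 sodium pump genes. An ETS core, CCGGAAG, was in 7.83% of genes and in 4 of 16 Atp5, 2 of 18 Atp6 and 1 of 4 sodium pump genes. The E-box CACGTG was in 6.86% of genes and in 5 of 16 Atp5, 2 of 18 Atp6 and 1 of 4 sodium pump genes. The longer palindrome of the lysosomal CLEAR element, which contains the E-box letters, was in 0.27% of genes and in 0 members. In the lines that follow, written 5′ to 3′ on the gene's strand, capitals mark the NRF1 core in Atp5k and Atp5g2, the ETS core (reverse strand) in Atp5e, the ETS core (reverse strand) followed by the E-box in Atp5l, and the NRF1 core followed by the ETS core in Atp6v1e1. They lie at chr5:108434420-108434479, chr15:102671060-102671119, chr2:174464177-174464236, chr9:44920864-44920974 and chr6:120822716-120822866, all on the minus strand, and overlapped no annotated exon.
Atp5k: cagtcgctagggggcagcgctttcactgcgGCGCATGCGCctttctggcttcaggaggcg
Atp5g2: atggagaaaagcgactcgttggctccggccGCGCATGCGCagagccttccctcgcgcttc
Atp5e: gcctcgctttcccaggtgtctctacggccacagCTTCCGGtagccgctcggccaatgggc
Atp5l: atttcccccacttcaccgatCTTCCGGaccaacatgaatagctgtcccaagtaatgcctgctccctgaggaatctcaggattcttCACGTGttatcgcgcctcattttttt
Atp6v1e1: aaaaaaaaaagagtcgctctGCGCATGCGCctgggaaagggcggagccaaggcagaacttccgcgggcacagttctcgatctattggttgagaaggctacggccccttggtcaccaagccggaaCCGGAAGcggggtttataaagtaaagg
A match of letters is a description and was not tied to binding of any factor here. Of these 5 genes, all were lower in ALDH+ cells in the comparison averaged over genotypes, as were others with none of these letters in their window, such as Atp6v0e.

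Each library held between 7492010 and 10057827 fragments over the entries with a usable estimate. This was computed from the FPKM values and their intervals (FPKM, a level corrected for transcript length and library depth). Entries with a failed or too deep estimate, Ins1 and Ins2 among them, were counted as 0, so the full depth is higher. Aldh1a3, an aldehyde dehydrogenase behind the sort, was at 0.490 to 4.09 FPKM in ALDH- and 22.1 to 76.9 in ALDH+ libraries. Foxo1 was at 12.04 to 20.1 FPKM in control and 0.0925 to 4.24 in knockout libraries, and Foxo4 at 0 to 1.34 and 0 to 0.0669. Foxo3 did not separate the genotypes (12.7 to 23.0 in control and 9.78 to 30.6 in knockout libraries), and since a gene-level value can include exons outside a deleted part, it does not check the label. The libraries control ALDH+ 1 and knockout ALDH+ 3 stood apart from the others: they had the lowest summed FPKM of 7 β-cell markers, 35369 and 44372, against 83988 to 127931 in ALDH- libraries, a sum carried almost wholly by Iapp (mean of 102839 FPKM in ALDH- libraries, the other 6 genes at most 1368), and the highest sums of 5 nuclear-retained RNAs. In the Pdx-cre ALDH- libraries the α-cell marker sum was 9557 to 35850, against 672 to 893 in the Rip-cre ALDH- libraries. It was 277 to 5830 in Pdx-cre and 157 to 1019 in Rip-cre ALDH+ libraries. The δ-cell marker sum was 414 to 13646 in ALDH- and 507 to 2990 in ALDH+ libraries, and the PP-cell sum 539 to 18184 and 318 to 4433. Stromal and endothelial marker sums were at most 1.14 and 4.01 FPKM in any library, and immune markers 21.2 to 159.7. Acinar markers summed to at most 396 in ALDH- and 1492 in ALDH+ libraries. Of the 10 acinar genes, 9 had a higher mean in ALDH+ libraries. The highest acinar sums were in Pdx-cre libraries: 1492 in control ALDH+ 2, 695 in knockout ALDH+ 5 and 396 in knockout ALDH- 5. In the other ALDH+ libraries the acinar sum was 0.246 to 5.496. The part of acinar RNA in the results for the pumps was not tested. The immune sum was mostly Cd68 (19.0 to 148), with Cd74 at most 20.3, Lyz2 0.688, Ptprc 0.0214 and Emr1 0 FPKM. Duct markers summed to 99.2 to 158.8, mostly Krt7 (82.6 to 141).

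Islet cells held all 3 pumps at high levels. Averaged over the 15 libraries, Atp5b, the catalytic F1 β subunit, was at 878 FPKM, Atp5e, the F1 epsilon subunit, at 502, and Atp5g1, a gene for the c ring, at 331. The best-expressed vacuolar members were Atp6v0e, a small V0 subunit, at 201 FPKM and the accessory protein Atp6ap1 at 194. The sodium pump was represented by the beta subunits Atp1b1 at 194, Atp1b3 at 60.8 and Atp1b2 at 6.04 FPKM. The sperm form Atp1a4 reached 0.0317 FPKM and Atp1b4 0.477. Vacuolar forms typical of kidney, bone or other specialised cells were also near 0, with Atp6v0a4 at up to 0.135, Atp6v0d2 at up to 0.0424 and Atp6v1b1 at up to 0.127 FPKM. Atp6ap1l, Atp6v1e2 and Atp6v1g3 were listed at 0 in all 15 libraries. A mean of at least 1 FPKM after rescaling was required for the test, and 39 members passed: all 17 Atp5, 18 Atp6 and 4 sodium pump genes. The other 11 were not tested.

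Across both genotypes, weighted equally, ATP synthase subunits were lower in ALDH+ than in ALDH- cells, and the other pumps less so by median. In limma on log2(rescaled FPKM + 1), with cre driver as a covariate and Benjamini-Hochberg adjustment over all 11253 genes, 21 of the 39 tested members were lower and 0 higher at an adjusted p below 0.05, where 3.76% of all genes tested were lower and 2.22% higher. At an unadjusted p below 0.05, 28 were lower, against 11.9% of all genes. The 21 included 13 of 17 Atp5 and 7 of 18 Atp6 members. The median log2 fold change was -0.69 for Atp5, -0.42 for Atp6 and -0.21 for the sodium pump, against -0.02 for all genes. A negative sign was found in 37 of 39 members and in 52.3% of all genes. These calls rested on few libraries: without control ALDH+ 1 the count was 0, without control ALDH- 1, 2 or 3 it was 8, 8 and 9, and without control ALDH+ 2 it was 12. Counts of all genes in these refits are not given here, so a loss of calls particular to the pumps was not shown. With the trend on transcript length removed, as described under the lengths, it was 2, with 0 of the Atp5 members, and the medians were -0.26, -0.24 and -0.18, close to each other. With upper-quartile scaling the count of members was 8, where 213 genes were lower, and the share of lower genes among all called genes went from 62.9% to 40.1%. In bulk RNA, fewer cells of a type and less RNA per cell cannot be told apart.

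**Figure D1:**
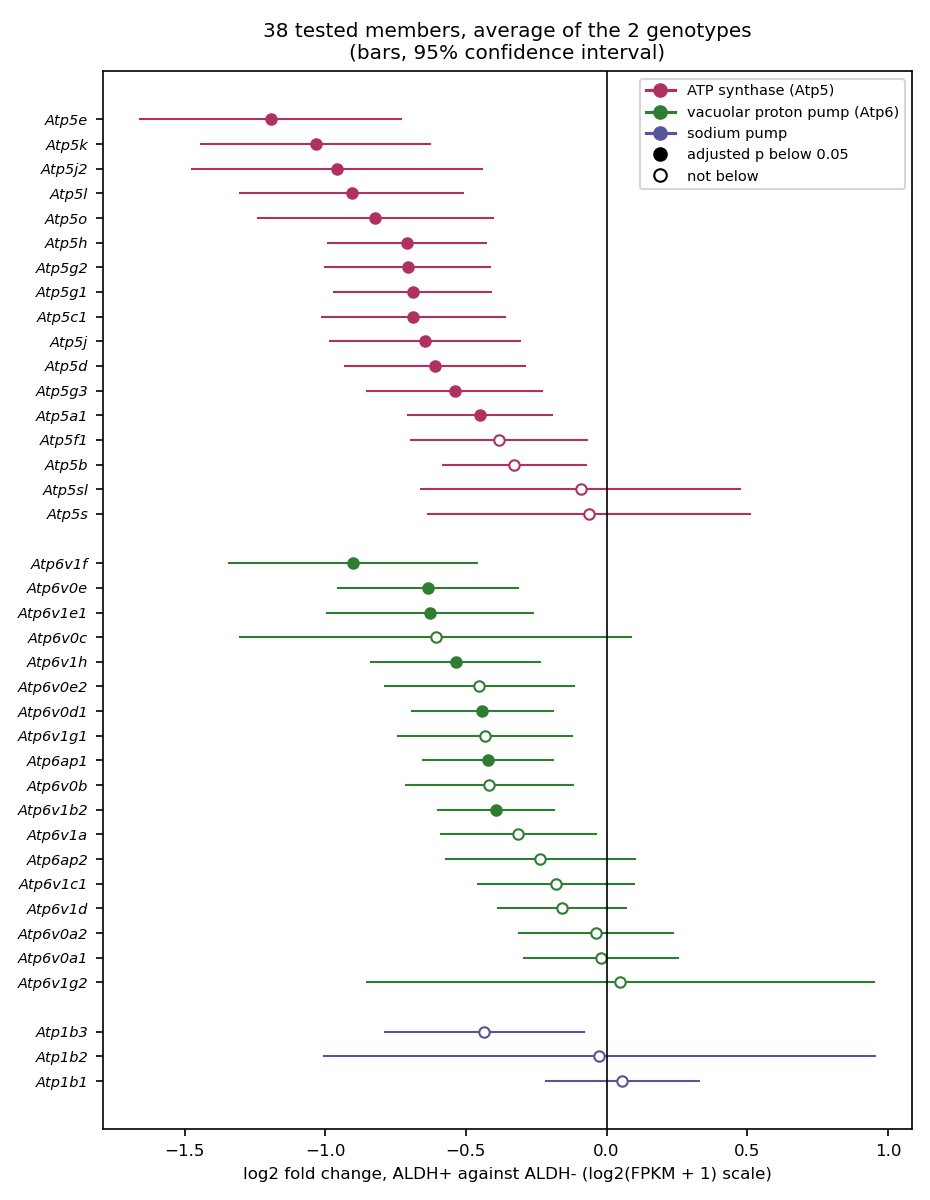
Log2 fold change of ALDH+ against ALDH- cells, averaged over genotypes, for 38 tested members on the log2(FPKM + 1) scale, with bars for the 95% confidence interval and filled points for an adjusted p below 0.05. Filled points number 13 in Atp5 and 7 in Atp6, and all lie left of 0.

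In the F1 head 4 of 5 subunits were lower. Atp5e (mm9 chr2:174286576-174289602) was at 637, 708 and 490.4 FPKM in the control ALDH- libraries, 546, 571, 772, 598 and 751 in knockout ALDH-, 142 and 279 in control ALDH+, and 536, 439, 188, 497 and 379.7 in knockout ALDH+. Before rescaling the ALDH+ libraries lay below the ALDH- ones within each genotype, and across genotypes only control ALDH- 3 was passed by an ALDH+ library. Its log2 fold change of -1.19 ± 0.22 (SE, limma adjusted p = 0.00673) was the largest among members, a ratio of 0.437. Atp5c1, the rotating gamma subunit, was at 221, 259 and 275 FPKM in control ALDH-, 207, 212, 239, 219 and 404 in knockout ALDH-, 126 and 168 in control ALDH+, and 174, 202, 132, 194 and 168 in knockout ALDH+. All 7 ALDH+ libraries were below all 8 ALDH- libraries, with a fold change of -0.69 ± 0.15 (limma adjusted p = 0.0159). Atp5d, the delta subunit, and Atp5a1, the non-catalytic alpha subunit of the head, fell by 0.61 and 0.45 on the log2 scale (limma adjusted p = 0.0276 and 0.0385). Atp5b, the catalytic subunit and most abundant member, did not pass the test. It was at 920.2, 1034 and 879 FPKM in control ALDH-, 889, 865, 1054, 1029.7 and 987 in knockout ALDH-, 822 and 618 in control ALDH+, and 771, 817, 934, 867 and 688 in knockout ALDH+. Its groups overlapped, and its fold change was -0.33 ± 0.12 (limma adjusted p = 0.119).

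The genes of the c ring and of the membrane subunits beside it were all lower. The 3 c-ring genes Atp5g1, Atp5g2 and Atp5g3 encode the same mature protein and have fold changes of -0.69, -0.71 and -0.54 (limma adjusted p = 0.00833, 0.00877 and 0.0393). Atp5g1 was at 346, 329.7 and 423 FPKM in control ALDH-, 379, 279.9, 500.4, 399 and 514 in knockout ALDH-, 182 and 281 in control ALDH+, and 223, 249.8, 245, 327 and 291 in knockout ALDH+, with an overlap made by knockout ALDH- 2. Since reads of the shared coding part could be split among the 3 genes, their sum is more certain than the parts. It was 741 to 1130 FPKM in ALDH- and 438 to 790 in ALDH+ libraries. All 3 tested membrane subunits were lower: Atp5k, the small subunit e, Atp5l, subunit g, and Atp5j2, subunit f, which sit beside the ring, e and g helping the enzyme to form dimers. Atp5k (mm9 chr5:108862272-108863397) was at 301, 388 and 441 FPKM in control ALDH-, 310.1, 301, 459, 417 and 481 in knockout ALDH-, 115 and 208 in control ALDH+, and 299, 291, 124, 243 and 264 in knockout ALDH+. The highest ALDH+ library was only just under the lowest ALDH- library before rescaling and passed it after rescaling. The fold changes were -1.03 ± 0.19 for Atp5k, -0.91 ± 0.19 for Atp5l and -0.96 ± 0.24 for Atp5j2 (limma adjusted p = 0.00723, 0.011 and 0.0298). Atp5j2 was at 107 to 159.7 FPKM in the ALDH- and 30.7 to 107 in the ALDH+ libraries, with no overlap after rescaling.

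In the peripheral stalk, which keeps the head from turning with the rotor, 3 of 4 subunits were lower. Atp5h, subunit d, was at 111, 106 and 109.6 FPKM in control ALDH-, 93.2, 79.4, 86.2, 115 and 105 in knockout ALDH-, 45.7 and 73.9 in control ALDH+, and 80.6, 75.7, 45.4, 69.9 and 81.0 in knockout ALDH+. Only knockout ALDH- 2 was inside the ALDH+ range, and the fold change was -0.71 ± 0.13 (limma adjusted p = 0.00734). Atp5o, the subunit that joins stalk and head, and Atp5j, subunit F6, had fold changes of -0.82 ± 0.20 and -0.65 ± 0.16 (limma adjusted p = 0.0233 and 0.0275), and Atp5j did not overlap between ALDH- and ALDH+ libraries. Atp5f1, subunit b, had a fold change of -0.38 ± 0.15 (limma adjusted p = 0.143). The 13 Atp5 members called were thus all among the 15 subunits of the enzyme. The 2 synthase-related genes, Atp5s and Atp5sl, had fold changes of -0.06 and -0.09 (limma adjusted p = 0.928 and 0.887) at levels of 4.18 to 15.8 and 1.05 to 5.35 FPKM.

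Among vacuolar members the V1 head had 4 of 9 tested subunits lower. Atp6v1h, the regulatory H subunit (mm9 chr1:5073254-5152630), was at 60.7, 68.8 and 53.3 FPKM in control ALDH-, 50.1, 49.7, 54.9, 77.5 and 91.8 in knockout ALDH-, 45.6 and 45.9 in control ALDH+, and 41.5, 45.4, 33.1, 37.9 and 46.6 in knockout ALDH+. No ALDH+ library reached an ALDH- library, and the fold change was -0.54 ± 0.14 (limma adjusted p = 0.035). Atp6v1f, the small F subunit of the rotor, varied more within groups, from 86.9 to 257 FPKM in ALDH- and from 38.1 to 137 in ALDH+ libraries, with a fold change of -0.90 ± 0.21 (limma adjusted p = 0.0197). Atp6v1e1 of the stalk and Atp6v1b2 of the nucleotide-binding head had fold changes of -0.63 ± 0.17 and -0.39 ± 0.10 (limma adjusted p = 0.0426 and 0.0275). The catalytic subunit Atp6v1a, like Atp5b in the synthase, did not pass, at -0.31 (limma adjusted p = 0.178). Of the other V1 subunits, Atp6v1g1, Atp6v1c1 and Atp6v1d had values of -0.43, -0.18 and -0.16, and the neuronal form Atp6v1g2, at 0 to 9.59 FPKM, had 0.05 (limma adjusted p = 0.0922, 0.477, 0.445 and 0.966).

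In the V0 sector 2 of 7 tested subunits were lower: Atp6v0e at -0.63 ± 0.15 and Atp6v0d1, the link between sector and head, at -0.44 ± 0.12 (limma adjusted p = 0.0217 and 0.0368). The large a subunits, which set where in the cell the pump sits, were near 0 change, with -0.02 for Atp6v0a1 and -0.04 for Atp6v0a2 (limma adjusted p = 0.954 and 0.907). Atp6v0c, the gene for the vacuolar c ring, cannot be read apart from Atp6v0c-ps2: between 24.6% and 85.3% of their summed FPKM was given to Atp6v0c in different libraries. Its own fold change was -0.61 ± 0.33 (limma adjusted p = 0.312), and the sum of both was 200.1 to 342 FPKM in ALDH- and 137 to 215 in ALDH+ libraries, which overlapped. Of the accessory proteins, Atp6ap1 was lower at -0.42 ± 0.11 and Atp6ap2, also known as the prorenin receptor, had -0.24 (limma adjusted p = 0.0328 and 0.437).

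In the sodium pump no beta subunit was called. Atp1b1 was at 226, 196 and 187 FPKM in control ALDH-, 163, 257, 177, 159.8 and 165 in knockout ALDH-, 209 and 195 in control ALDH+, and 176, 225, 226, 189 and 165 in knockout ALDH+. The groups lay on top of each other, and the 95% interval of its log2 fold change of 0.06 ran from -0.22 to 0.33 (limma adjusted p = 0.852). Atp1b3 had -0.43 ± 0.17 (limma adjusted p = 0.14), and the little-expressed Atp1b2, at 0.103 to 11.7 FPKM, had -0.03 (limma adjusted p = 0.984). The sign of the smallest changes depended on scaling: with upper-quartile scaling Atp1b2, Atp6v0a1, Atp6v0a2 and Atp5s turned positive, and all genes had a median of 0.06.

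**Figure D2:**
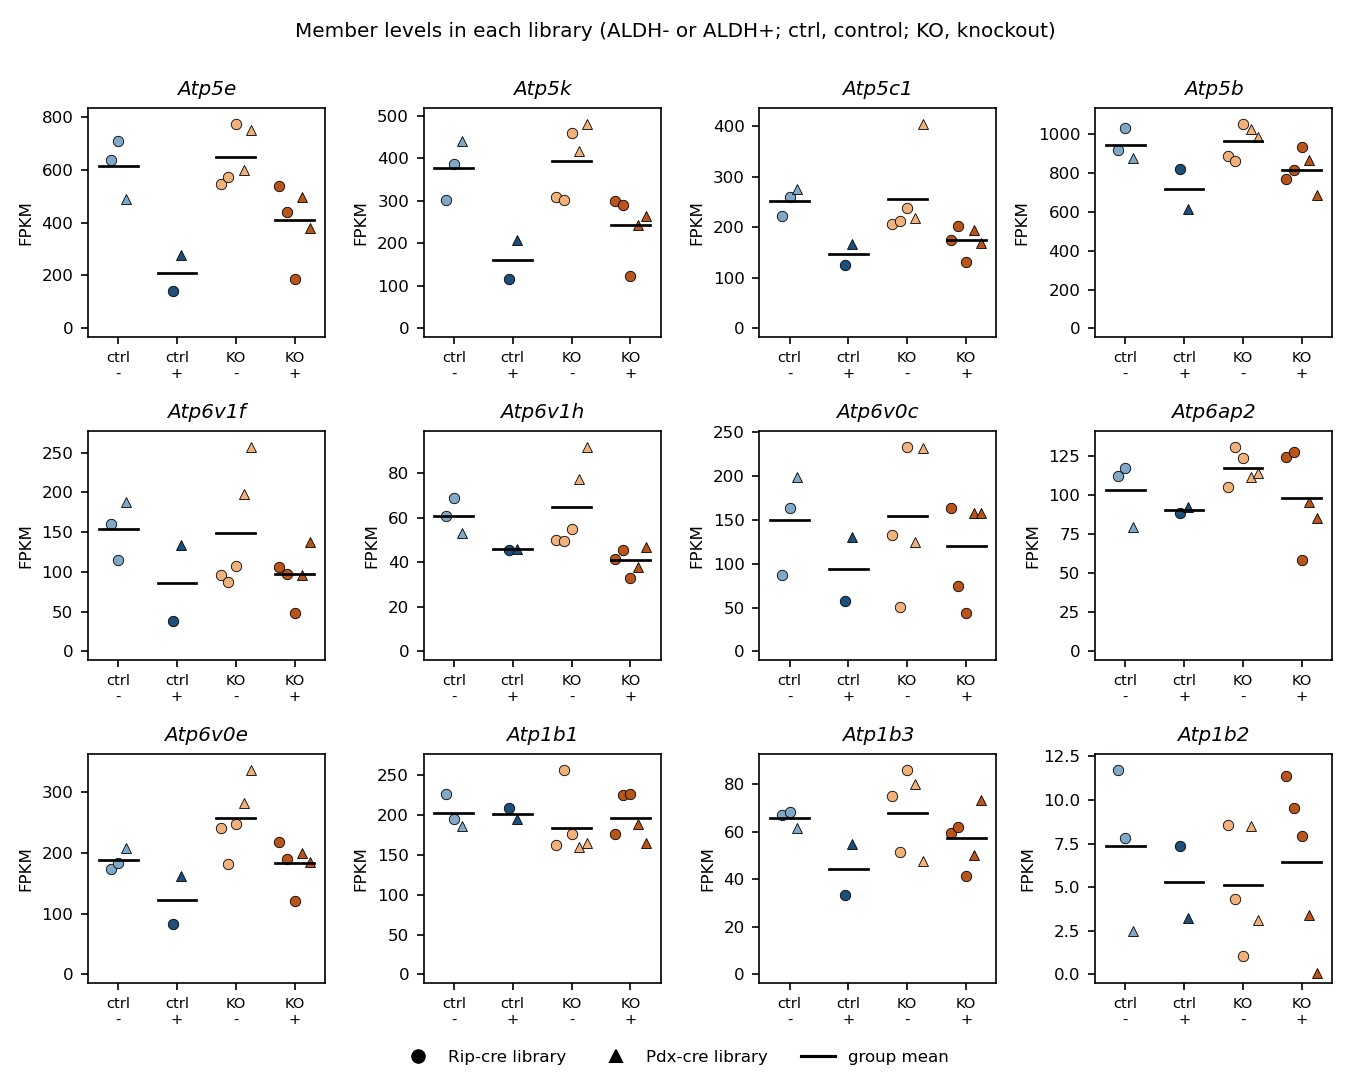
FPKM of 12 members in each library, by genotype (ctrl, control; KO, knockout) and sort (-, ALDH-; +, ALDH+), with circles for Rip-cre, triangles for Pdx-cre and a line at the group mean. Atp5c1 and Atp6v1h show no overlap of ALDH+ with ALDH- libraries, while Atp1b1 and Atp6ap2 overlap widely.

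After rescaling, 4 of the 39 members, Atp5c1, Atp5j, Atp5j2 and Atp6v1h, had every ALDH+ library below every ALDH- library, as had 0.293% of all genes. Within the Rip-cre libraries 11 members did (3.05% of all genes) and within the Pdx-cre libraries 21 did (8.76%). Within knockout libraries there were 6 (0.951%) and within the 5 control libraries 26 (17.1%), among them all 17 Atp5 members. Without the other driver the medians for Atp5, Atp6 and the sodium pump were -0.68, -0.41 and -0.18 in Rip-cre libraries and -0.59, -0.35 and -0.27 in Pdx-cre libraries. In limma 1 member, Atp5e, was past an adjusted p of 0.05 within the Rip-cre libraries (-1.51, adjusted p = 0.0452), as were 100 of 11125 genes in the lower direction. Within the Pdx-cre libraries 0 members and 1 of 11269 genes were lower at that threshold, and 11 Atp5 and 3 Atp6 members were lower at an unadjusted p below 0.05, as were 454 genes.

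Library by library, the Atp5 median separated ALDH+ from ALDH- cells. Relative to the control ALDH- mean, the median Atp5 member was at -1.04 and -0.52 in control ALDH+ 1 and 2 and at -0.28, -0.33, -0.99, -0.29 and -0.40 in knockout ALDH+ 1 to 5, whereas the ALDH- libraries ran from -0.16 to 0.14. All 7 ALDH+ libraries were lower than all 8 ALDH- libraries, and control ALDH+ 1 and knockout ALDH+ 3 were lowest. The median Atp6 member was at -0.62 and -0.20 in control ALDH+ and at -0.28, -0.40, -0.56, -0.19 and -0.10 in knockout ALDH+, which overlapped the ALDH- libraries. The median sodium pump member was at -0.36 and -0.26 in control ALDH+ and at -0.16, 0.02, -0.02, -0.23 and -0.16 in knockout ALDH+. These values overlapped the ALDH- libraries, which ran from -0.30 to 0.17. Without control ALDH+ 1 and knockout ALDH+ 3 the medians averaged over genotypes were -0.48, -0.34 and -0.10 and 0 members were called.

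The same libraries differed in other RNAs. The summed FPKM of 5 nuclear-retained RNAs (Malat1, Neat1, Meg3, Snhg11 and Kcnq1ot1) was 273 to 1623 in ALDH- and 2056 to 4942 in ALDH+ libraries, did not overlap, and was highest in control ALDH+ 1 (4942) and knockout ALDH+ 3 (4745). All 5 of its genes had a higher mean in ALDH+ libraries. The study had named these 5 RNAs among its top transcripts raised in wild-type ALDH+ cells, so their rise was known beforehand. Malat1 carried most of the sum, at a mean of 805 FPKM in ALDH- and 3208 in ALDH+ libraries (the others at most 261). The β-cell marker sum, without Ins1 and Ins2, which had no usable estimate, was 83988 to 127931 in ALDH- and 35369 to 99455 in ALDH+ libraries, and 3 of its 7 genes (Nkx6-1, Pdx1 and Ucn3) had a higher mean in ALDH+ libraries. Pooled over drivers, 0 of 5 α, 0 of 2 δ and 0 of 2 PP genes had a higher mean in ALDH+ libraries. Gcg was at a mean of 8316 in ALDH- and 1204 in ALDH+, Sst at 4440 and 1210.4, and Ppy at 2014 and 428 FPKM. The drop in the δ-cell sum lay in the Pdx-cre libraries, at 8255 to 13646 in ALDH- and 752 to 2990 in ALDH+. In the Rip-cre libraries that sum overlapped, at 414 to 1038 in ALDH- and 507 to 1298 in ALDH+. The part of any of these in the results for the pumps was not tested.

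**Figure D3:**
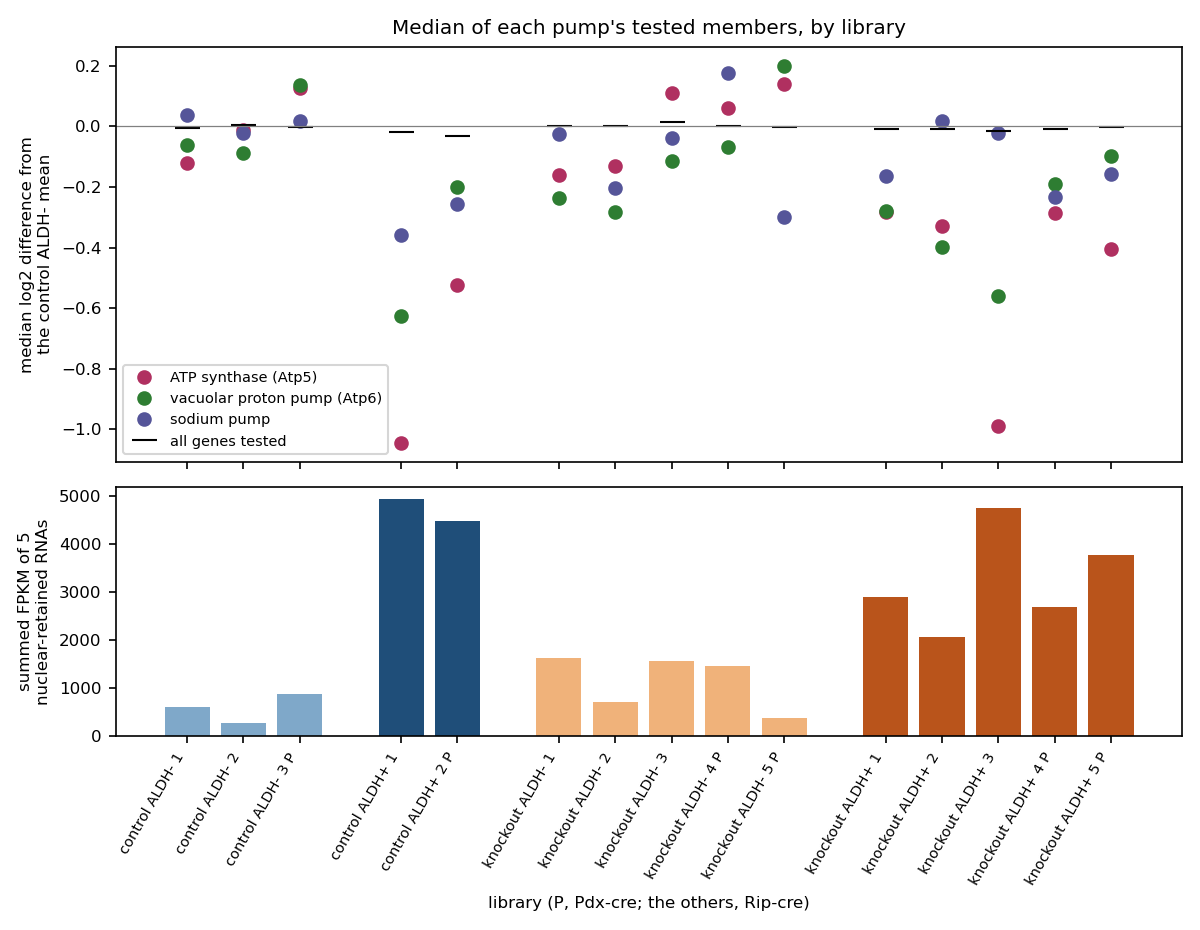
Top, median log2 difference of the tested members of each pump from the control ALDH- mean in each of the 15 libraries, with a dash for all genes. Bottom, summed FPKM of 5 nuclear-retained RNAs in the same libraries, with Atp5 lowest (-1.04 and -0.99) where that sum was highest (4942 and 4745).

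Transcript length moved with the change. The lengths behind the FPKM values, computed from the fragments, were shorter for the synthase than for other genes, with a median of 627 bases for Atp5, 1690 for Atp6, 2766 for the sodium pump and 2751 for all genes tested. Over all 11253 genes the log2 fold change rose with length (Spearman rho of 0.39, a description across genes, which are not independent), and over the 39 members rho was 0.83. Genes under 500 bases had a median of -0.52 over 439 genes and of -0.91 over 7 members, and genes of 500 to 1000 bases had -0.34 over 919 genes and -0.61 over 9 members. From 1500 to 2500 bases the medians were -0.09 over 2515 genes and -0.42 over 11 members. Members were thus below the median of genes of like length in these 3 classes. When the trend on this length was removed from each library, the Atp5 median was -0.26 with 16 of 17 members negative, the Atp6 median -0.24 and the sodium pump median -0.18. In limma 2 members then remained below an adjusted p of 0.05, among them Atp6v1b2 (-0.38, adjusted p = 0.0485), and 0 of the Atp5 members were called, where 55 of 11253 genes were lower. With annotated lengths 4 members were called, among them Atp5e, Atp5g1 and Atp6v1b2, where 90 of 11137 genes were lower, and the Atp5 median was -0.29. The annotated length of Atp5g1, 2675.5 bases, was far from the 662 bases behind its FPKM. The shortest members were those with the largest changes, Atp5k at 96.7 bases, Atp5e at 227, Atp5j2 at 297 and Atp5l at 337, while Atp5b had 1861 and Atp5a1 2477 bases. The ratio of the lengths used for Atp5b and Atp5k was 19.2 to 19.3 in every library, so that one length correction was applied to all of them.

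**Figure D4:**
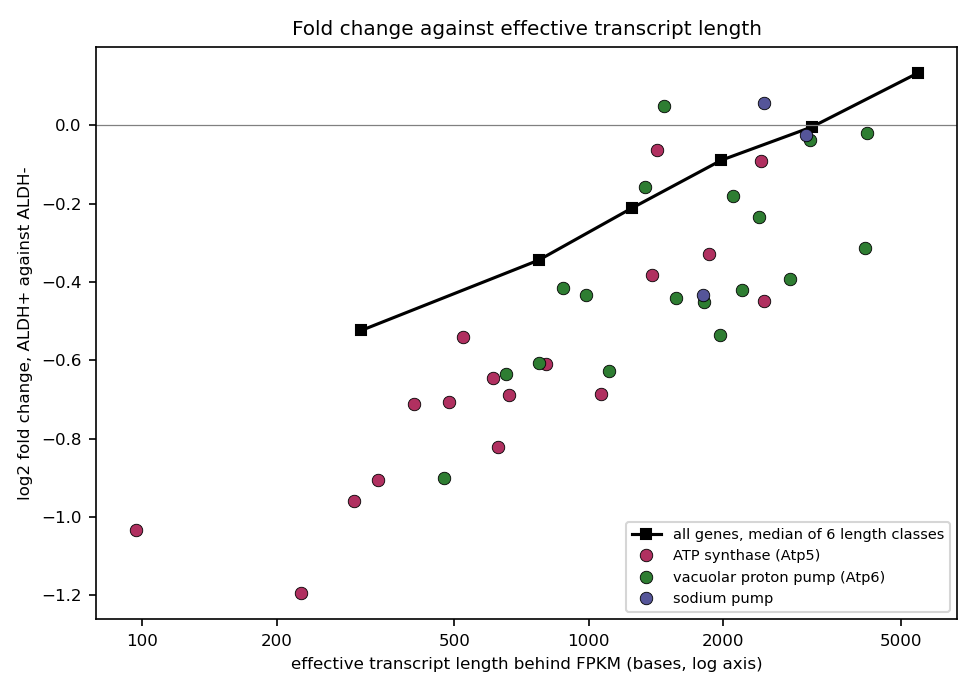
Log2 fold change of ALDH+ against ALDH- cells against the transcript length behind the FPKM value (log axis, bases), for 38 tested members and for the medians of 6 length classes of all genes. The medians of all genes run from -0.52 in the shortest to 0.13 in the longest class, and most members lie under that line.

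In control mice alone the difference between ALDH+ and ALDH- cells was negative in 39 of 39 tested members and in 52.3% of all genes. In limma 5 of them, Atp5e (-1.67), Atp5k (-1.36), Atp5l (-1.33), Atp5g2 (-1.07) and Atp5h (-0.98), were lower (adjusted p = 0.0403, 0.0494, 0.0494, 0.0374 and 0.0418), against 0.755% of all genes, and 0 were higher, against 0.462%. At an unadjusted p below 0.05, 23 were lower, against 8.62% of all genes. All 5 were synthase subunits. The medians were -0.78 for Atp5, -0.44 for Atp6 and -0.34 for the sodium pump. This comparison rested on 2 ALDH+ libraries of different drivers, and the count was 0 without any of control ALDH- 1, 2 or 3, knockout ALDH- 1, control ALDH+ 1 or knockout ALDH+ 5, 1 to 3 without knockout ALDH- 2, knockout ALDH- 3, control ALDH+ 2 or knockout ALDH+ 4, and 8 without knockout ALDH+ 3.

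In knockout mice alone 0 of 39 members passed the adjusted threshold in limma, where 0% of all genes were lower and 0.0178% higher. At an unadjusted p below 0.05, 19 members were lower, among them 12 Atp5 and 6 Atp6, against 7.34% of all genes. The medians were -0.49, -0.28 and -0.06, and 32 of 39 members and 50.8% of all genes were negative. Atp5g1 had the smallest adjusted p in limma, 0.158. The 2 synthase-related genes were positive here, Atp5s at 0.40 and Atp5sl at 0.41, and were not called.

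The knockout did not change any member past the adjusted threshold. In ALDH- cells 0 members were called in limma, against 0.00889% of all genes in each direction, and 1 member, Atp6v1e1 (-0.68), had an unadjusted p below 0.05, where 3.04% of all genes were lower. In ALDH+ cells 0 members and 0% of all genes were called, and 6 members were higher at an unadjusted p below 0.05, against 4.05% of all genes. All 17 Atp5 members were positive there, where 48.1% of all genes were negative, with a median of 0.31, and Atp5e had 1.00 (95% interval 0.30 to 1.70, limma adjusted p = 0.638). The difference of the sort effect between genotypes, which shares these libraries, was tested as an interaction and called 0 members. Atp5e, Atp5g2, Atp5l and Atp6v1e1 had an unadjusted p below 0.05 in it, against 2.66% of all genes, and the value for Atp5e was 0.94 with a 95% interval of 0.01 to 1.87 (limma adjusted p = 0.998). A larger effect of the sort in control than in knockout mice was therefore neither shown nor bounded closely for the synthase.

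Between drivers, 5 members were higher in Pdx-cre than in Rip-cre libraries and 0 lower in limma, against 5.68% and 4.05% of all genes. They were Atp6v1f (0.97), Atp6v1e1 (0.58) and Atp6v1a (0.42) of the vacuolar head and Atp5g2 (0.48) and Atp5g1 (0.41) of the c ring (adjusted p = 0.0064, 0.0348, 0.0443, 0.0308 and 0.0496). For Atp6v1f the 3 Pdx-cre ALDH- libraries had 188, 197 and 257 FPKM and the 5 Rip-cre ALDH- libraries 160.1, 115, 96.6, 86.9 and 108. The drivers did not overlap in ALDH- cells. In ALDH+ cells they did, at 134, 96.4 and 137 FPKM in Pdx-cre and 38.1, 106, 97.0 and 48.4 in Rip-cre libraries. The medians were 0.26 for Atp5, 0.26 for Atp6 and -0.02 for the sodium pump. The driver goes with the cells labelled, the markers of α, δ and PP cells given above, the sex of the mice and possibly their age, whose parts were not tested. Xist exceeded the sum of 4 Y-linked genes in 4 of 6 Pdx-cre and 0 of 9 Rip-cre libraries. The count was 1 without control ALDH- 1 or 3, knockout ALDH- 5, either control ALDH+ library or knockout ALDH+ 5, and 2 or 3 without control ALDH- 2, knockout ALDH- 1 or 2, or knockout ALDH+ 2 or 3. The effect of the sort was not shown to differ between drivers, with 0 members called and 0 at an unadjusted p below 0.05 in that interaction, where 2.19% of all genes were lower and 2.35% higher unadjusted.

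Genes that work with these pumps but lie outside the symbol rule gave a mixed picture in the comparison averaged over genotypes. The trend on transcript length was not removed from the values given here, and its part in them was not tested. Of 6 tested genes for the inhibitor and assembly or membrane partners of the synthase, 3 were lower in limma: Atpif1, the inhibitor that stops the enzyme from running backwards, at -0.71, Usmg5, a small membrane partner, at -0.86, and 2010107E04Rik, another, at -1.10 (adjusted p = 0.00648, 0.0209 and 0.0426). Of 10 tested genes tied to the vacuolar pump, 0 were lower and 1, Dmxl2, part of a complex that aids pump assembly, was higher at 0.50 (limma adjusted p = 0.0275), with a median of 0.17. Of 3 tested Fxyd genes, small regulators of the sodium pump, 0 were called, and Fxyd5 had -1.41 (limma adjusted p = 0.0564). Of 11 tested genes for other ion pumps 0 were called, the median was 0.10, and the calcium pump Atp2a2 had -0.00.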

How the data were processed

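Poly-A RNA of the 15 sorted samples was sequenced with the Illumina TruSeq kit. The submitters' processing notes name bcl2fastq 1.8.4, TopHat2 2.0.4 and mm9. The quantifier and annotation were not given in the sources used here. The authors deposited 1 table per sample with FPKM and its 95% interval for 23699 entries. From these the fragments behind each value were computed (7492010 to 10057827 per library, with failed or too deep estimates counted as 0). Of the values under 500, 66.2% came within 0.02 of a whole number, too few for a count test. The kit is not stated to mark strand, so reads of overlapping genes cannot be told apart.

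Of all entries, 712 lines with repeated symbols and 63 with a failed or too deep estimate were left out. FPKM was rescaled by trimmed mean ratios (30% of ratios and 5% of levels trimmed each side, scale factors 0.918 to 1.05), and genes with a mean of at least 1 were tested as log2(FPKM + 1), a scale that understates the change of low genes, in limma 3.58.1 (R 4.3.3) with the 4 groups and cre driver in the model, two-sided, with Benjamini-Hochberg adjustment over 11253 genes and a threshold of 0.05. The test was also run on simulated data with independent normal noise and, for each gene, the same spread in all libraries. Such data hold no outlying library and no trend on length, so they cannot show how these affect the calls. Groups were taken from the labels. The members and the lists of related genes and markers were chosen with earlier results of these data known. Members named are those past the threshold in any comparison, the most changed and most abundant of each pump, and those tied to low levels or shared reads, and the other tested members were named after their values were seen. Promoter motifs were searched with Python 3.11.15. Alternatives changed the pseudocount, filter, scaling, length correction, driver term, block and libraries used. Some members are not reported here by name and were left out of the plots of single members, while they stay in counts and medians.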

Additional observations from a re-analysis of the deposited data

Results flagged for a closer look

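Of 64 groups of 5 libraries checked, 10 held a library far from the other 4. Each group was 1 member in the knockout ALDH- or knockout ALDH+ libraries. Members shared these libraries and are not independent, so the number flagged cannot be set against chance. Of the 10 flagged, 7 were knockout ALDH+ 3, low in each. It had 165 FPKM of Atp5g3 against 284 to 324 in the others, 45.4 of Atp5h against 69.9 to 81.0, 90.6 of Atp5j against 183 to 208, 30.7 of Atp5j2 against 84.1 to 107, 124 of Atp5k against 243 to 299, 40.9 of Atp5o against 106 to 131, and 120.4 of Atp6v0e against 185 to 219. It was also the lowest of its group for some subunits of the F1 head. It had 188 FPKM of Atp5e against 379.7 to 536, 132 of Atp5c1 against 168 to 202, and 159 of Atp5a1 against 181 to 260.5. The rest of the head differed: its Atp5d, at 123, lay within the others (108 to 146). Its Atp5b, at 934, was the highest of the group (688 to 867 in the others). This library also had the highest nuclear-retained RNA sum and the lowest β-cell marker sum of the knockout ALDH+ group, whose part was not tested. The other 3 were high values: Atp5c1 at 404 FPKM in knockout ALDH- 5 against 207 to 239, Atp1b1 at 257 in knockout ALDH- 2 against 159.8 to 177, and Atp6v1a at 100.1 in knockout ALDH+ 5 against 64.4 to 74.1.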

How the results depend on the processing

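With 2 to 5 libraries per group and 2 control ALDH+ libraries of different drivers, the number of calls moved more than the direction. No member past the threshold reversed: all 937 values of members past the threshold kept their sign under the alternatives, and 492 stayed past it. These values are refits, on mostly the same libraries, of 31 results picked by that threshold, which favours a kept sign. The 21 members called between ALDH+ and ALDH- cells averaged over genotypes became 12 with no filter on low values, 8 with upper-quartile scaling, 4 with the annotated length trend removed, 4 with no cre driver in the model, 1 in Rip-cre libraries only and 0 in Pdx-cre libraries only. They ran from 0 (without control ALDH+ 1) to 22 when 1 library was left out. In alternatives chosen after seeing the data they became 0 without control ALDH+ 1 and knockout ALDH+ 3 together, 2 with the effective length trend removed, 1 with genotype and ALDH as additive terms and control ALDH+ 1 left out, 0 with both libraries left out of that model, and 3 with additive terms and the length trend removed. Additive terms alone gave 17, where 370 of 11253 genes were lower. Calls among all genes fell too, to 52 of 11216 genes lower without control ALDH+ 1 and 6 of 11221 without both libraries in that model. At an unadjusted p below 0.05 in limma, 15 and 13 of 17 Atp5 members were lower in these 2 refits, as were 1099 and 883 of all genes. For refits given without a count of all genes, a loss of calls particular to the pumps was not shown. The 5 members called in control mice became 3 with a pseudocount of 0.1, 2 with no rescaling, 9 with the compared groups only, and 0 with no filter, upper-quartile scaling, either length trend removed, no cre driver, Rip-cre libraries only or both libraries left out, and ran from 0 to 8 when 1 was left out. The 5 members called between drivers became 3 with no filter, 1 with no rescaling and 1 without both libraries, and ran from 1 to 7 when 1 was left out. The Atp5 median of -0.69 became -0.29 and -0.26 with the annotated and effective length trends removed, -0.32 with additive terms and the length trend removed, and -0.39 with additive terms without both libraries, where the Atp6 median was -0.22 and the sodium pump median -0.068. The sodium pump median was -0.039 with no filter, where little-expressed members entered. Leaving out 1 library gave -0.72 to -0.61 for Atp5, -0.42 to -0.39 for Atp6 and -0.30 to -0.12 for the sodium pump. The causes were not tested. Same-numbered libraries were not treated as pairs in the main model. Correlations of their deviations from group means were 0.238, 0.154, 0.0917, 0.128 and 0.406 in knockout and 0.237 and -0.244 in control. By these, 5 of 5 knockout ALDH- libraries correlated best with the ALDH+ library of their number. A shared driver enters these values. With the driver also removed they were 0.031, -0.044, -0.030, 0.070 and 0.0022 in knockout and -0.045 and 0.038 in control. The value of -0.244 cannot bear on pairing, since control ALDH- 2 was Rip-cre and control ALDH+ 2 Pdx-cre. With the replicate number within genotype as a random block, which joined those control libraries of different drivers, the counts were 21 over both genotypes and 5 in control mice. They were 4 between drivers and 0 in the other comparisons, and with a fixed block 0 in knockout mice.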
